A study of Mus musculus with 267 samples.

Results

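Slc7a2 encodes CAT2, a cationic amino acid transporter of the plasma membrane, and its locus was followed here in bone marrow-derived macrophages (BMDMs) as they responded to interleukin-4 (IL-4). The gene was selected on the C57 values of acetylated histone H3 lysine 27 (H3K27ac) around it, which were much higher after 24 h of IL-4, so those values are given as a description only. Members are all tag-count regions and all transcription factor peaks whose centre lies within 50 kb of the gene start in GENCODE vM21 on mm10, which gave 206 regions and peaks of 2382324 in the whole series. The tag tables supplied 3 regions of 67742 in C57, 4 of 54022 in BALB, 4 of 68932 in NOD, 4 of 60175 in PWK, 28 of 54755 in SPRET, 7 of 77955 in the C57 time course and 1 of 30675 in the C57 EGR2 time course. A further 155 peaks of 1958714, in 48 of 54 peak lists, fell into 15 separate sites.

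The study compared the IL-4 response of BMDMs from inbred mice of 5 strains, namely C57BL/6J (called C57 here), BALB/cJ (BALB), the wild-derived SPRET/EiJ (SPRET) and PWK/PhJ (PWK), and NOD/ShiLtJ (NOD). The animals were 8 to 12 week old females, and their marrow was differentiated with macrophage colony-stimulating factor. Cells of each strain were left untreated (basal) or given IL-4 at 20 ng/mL for 24 h, and C57 cells were also given it for 1 h and 6 h. ChIP-seq was made for H3K27ac, for di- and trimethylation of H3 lysine 4 (H3K4me2, H3K4me3), for RNA polymerase II (Pol II) and for the transcription factors STAT6, EGR2, PPARγ, PU.1 and C/EBPβ. Egr2 fl/fl control mice and LyzM-Cre Egr2 fl/fl mice, in which Cre acts in myeloid cells, were also profiled, but their tables held 0 of 4677 regions within the window; the nearest lay −262847 bp and 237068 bp from the start. In the groups with members, the histone marks had 2 libraries each and Pol II had 2 to 4, except for the single Pol II library at 1 h. Across the 155 libraries of the tag tables, those of the Egr2 mice included, the depth ran from 4691644 to 29050468 tags with a median of 12936233. The macrophage identity of the C57 cells was checked by basal H3K4me3: 7 of 8 macrophage marker genes had between 181.9 and 542.2 H3K4me3 tags at their promoter region (Csf1r had 1.58), whereas the 4 T cell and 3 epithelial genes had no region 2 of 4 B cell genes had at most 1.34 tags and 1 of 2 NK cell genes had 3.77. Kit, listed as a mast cell marker, had 86.0 H3K4me3 tags, while the other mast cell genes, Cpa3 and Mcpt4, had no region.

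CAT2 carries arginine, lysine and ornithine into the cell. In macrophages arginine is shared between arginase, which makes ornithine for polyamines and proline, and inducible nitric oxide synthase. IL-4 binds its receptor, Janus kinases phosphorylate STAT6, and STAT6 dimers bind palindromic elements near the genes they control. H3K27ac marks active enhancers and promoters, H3K4me3 marks promoters, H3K4me2 marks both, and Pol II is carried into the gene body by transcription.

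The gene lies on the + strand at chr8:40862396-40922308, spans 59.9 kb and has 12 exons in transcript Slc7a2-201. Within the window lie also the pseudogene Gm5345, whose start is 7.4 kb upstream, the gene Adam39 further upstream at −39.4 kb, and the lincRNA Gm26584, which runs antisense from 3.3 kb inside Slc7a2 to the Slc7a2 start. ChIP-seq carries no strand, so tags of Slc7a2 and Gm26584 cannot be told apart where they overlap. The next gene downstream, Pdgfrl, starts 63.8 kb from the Slc7a2 start. Another transcript has its first exon 12552 bp into the gene.

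Most of the values came from 5 sites, named here by their distance from the start: a distal site 11.2 kb upstream, an upstream site 6.9 kb upstream, the promoter, an intron 1 site 28 kb inside the gene and an exon 8 site 48.6 kb inside. The sequences below are the 250 bases of mm10 (GRCm38.p6, + strand) around 1 factor peak at each of 4 factor-bound places: the distal site (centred on a PU.1 peak), the upstream site and the promoter-proximal site 0.6 kb upstream (STAT6 peaks), and the intron 1 site (a PPARγ peak). They are shown because the acetylation and factor values described afterwards belong to them. Capitals mark every match to 5 short motifs that were searched on both strands: TTC and GAA 4 bases apart for STAT factors, GAGGAA for PU.1, TTGC and AA 2 bases apart for C/EBP, GTGGGNG for EGR, and the nuclear receptor hexamer AGGTCA.
distal site, chr8:40851014-40851263: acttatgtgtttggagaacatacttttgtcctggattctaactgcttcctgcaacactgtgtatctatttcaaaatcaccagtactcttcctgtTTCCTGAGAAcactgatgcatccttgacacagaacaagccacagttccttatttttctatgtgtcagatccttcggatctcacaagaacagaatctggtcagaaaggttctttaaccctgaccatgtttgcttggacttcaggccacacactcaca
upstream site, chr8:40855493-40855742: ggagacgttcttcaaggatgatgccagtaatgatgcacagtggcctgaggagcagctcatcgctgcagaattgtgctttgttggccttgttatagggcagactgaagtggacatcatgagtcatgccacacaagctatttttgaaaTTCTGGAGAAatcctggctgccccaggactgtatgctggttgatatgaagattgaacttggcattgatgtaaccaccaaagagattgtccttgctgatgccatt
promoter-proximal site, chr8:40861685-40861934: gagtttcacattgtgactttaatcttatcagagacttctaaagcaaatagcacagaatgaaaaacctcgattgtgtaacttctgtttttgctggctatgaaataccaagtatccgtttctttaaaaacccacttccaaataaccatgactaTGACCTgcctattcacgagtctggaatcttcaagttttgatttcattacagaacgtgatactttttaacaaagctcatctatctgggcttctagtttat
intron 1 site, chr8:40890262-40890511: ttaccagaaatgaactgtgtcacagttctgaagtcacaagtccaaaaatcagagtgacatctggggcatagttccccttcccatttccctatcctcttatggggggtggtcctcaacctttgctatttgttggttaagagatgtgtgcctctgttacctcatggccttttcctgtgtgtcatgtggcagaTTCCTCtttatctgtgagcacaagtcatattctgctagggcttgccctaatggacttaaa
The distal and upstream sequences each held 1 STAT match and no match to the other motifs. The proximal sequence held 1 hexamer, on the − strand, and the intron 1 sequence held 1 PU.1 match, on the − strand. Of the 3671 C57 regions of chromosome 8, 5.5% had a STAT match in their middle 250 bases, 36.3% a PU.1 match, 13.1% a C/EBP match, 27.2% an EGR match and 16.6% the hexamer. A match is a description of letters and not evidence that a factor binds it. STAT6 peak centres lay close to these letters: 11 peaks at the distal site had centres from −11310 to −11270 bp and a median distance of 4.5 bp to the match at −11288, and 6 peaks at the upstream site had a median distance of 27.5 bp to the match at −6757.

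H3K27ac at the distal site in C57 was 16.3 and 8.6 tags in the basal libraries and 200.3 and 158.8 after 24 h of IL-4. All H3K27ac values are normalised tag counts, that is, tags in a 1 kb region around a centre of open chromatin, scaled to 10000000 tags per library. At the C57 promoter the libraries held 9.5 and 6.4 tags before and 395.6 and 149.0 after IL-4, and the basal and treated libraries of both sites were far apart. These values chose the gene, so no test is attached to them; with 1 tag added to each mean, the promoter was 30.5-fold higher and stood 10th of the 67742 C57 regions by H3K27ac fold, and the distal site was 13.5-fold higher. A fold of at least 2.5 with at least 16 tags was reached by 3.46% of C57 regions and by 2 of the 3 C57 members. The third, the exon 8 site, was nearly bare of the mark, with 1.4 and 0 tags before and 5.1 and 2.0 after. In bulk chromatin a higher count can mean more cells with the mark or more of the mark per cell, and these cannot be told apart.

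The other 4 strains, which did not enter the choice of the gene, had the same order of basal and treated libraries at the distal site. BALB held 37.5 and 13.7 tags before and 298.9 and 98.6 after IL-4. NOD held 41.6 and 23.02 before and 381.2 and 248.2 after. PWK held 80.7 and 27.4 before and 624.3 and 232.9 after, and SPRET 57.3 and 73.8 before and 414.4 and 215.4 after. In each strain both treated libraries were above both basal ones. The BALB distal region was found open only after IL-4, a choice that favours a higher treated value in that strain. Fitted over these 4 strains with limma on log2(tags + 1), H3K27ac at the distal site was 2.83 higher on the log2 scale after IL-4 (SE 0.32, n = 16 libraries, adjusted p = 6.774e-06), while 5.33% of the 29462 regions matched in all 5 strains rose by the same test. The median over all those regions was −0.26, and under median-ratio scaling the distal value was 3.04. By basal level the strains stood in the order C57, BALB, NOD, PWK and SPRET, and after IL-4 in the order C57, BALB, NOD, SPRET and PWK; each strain's libraries overlapped with those of the next in both orders. A strain by IL-4 interaction was not called at this site by limma's F test (adjusted p = 1). That test called 0 of the 29462 regions, so the lack of a call does not show that the strains responded alike.

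**Figure D1:**
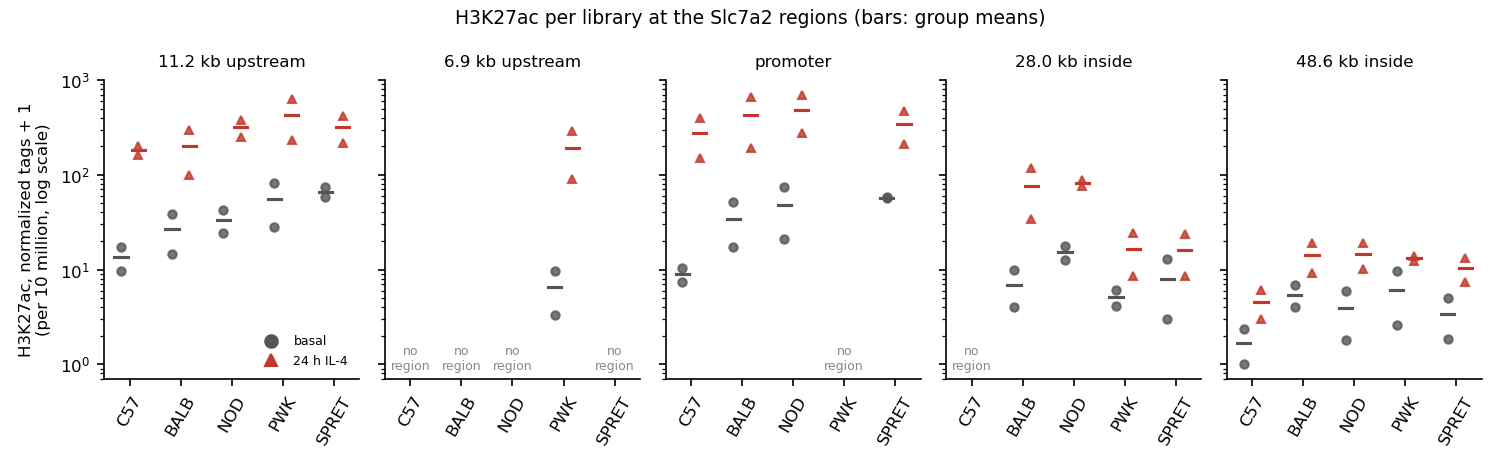
H3K27ac at the Slc7a2 sites in normalised tag counts plus 1 (per 10000000 tags, log axis), with 1 point per library and bars at the group means, basal and 24 h of IL-4 side by side for each strain. Every treated library at the distal site and the promoter sits above every basal library of its strain, in C57 as in the others.

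The promoter showed a similar step in the strains with a region there. In BALB it held 50.0 and 16.1 tags before and 661.9 and 188.7 after IL-4. In NOD it held 74.0 and 19.8 before and 690.7 and 275.2 after, and in SPRET 56.4 and 56.6 before and 469.0 and 207.8 after. Over BALB, NOD and SPRET promoter H3K27ac rose by 3.17 on the log2 scale (SE 0.40, n = 12 libraries, limma adjusted p = 4.068e-05), in a fit where 4.31% of 31617 regions rose. Basal promoter H3K27ac was lower in both C57 libraries than in any library of these 3 strains, a difference between separately made tables that was not tested. The PWK table had no region at the promoter.

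The intron 1 site was open in the BALB, NOD, PWK and SPRET tables and had no region in the C57 strain table. Its H3K27ac went from 8.8 and 3.0 tags to 116.0 and 33.4 in BALB, and from 11.6 and 16.7 to 75.2 and 87.2 in NOD. In PWK it went from 5.2 and 3.1 to 23.6 and 7.6, and in SPRET from 11.97 and 2.0 to 22.9 and 7.5, so that the SPRET groups overlapped. In each table this region was found open only after IL-4, a choice of regions that favours a higher treated value. Over the 4 strains it rose by 2.13 (SE 0.37, n = 16, limma adjusted p = 4.939e-04), beside 5.49% of 31010 regions. Because of that choice, the share over all regions is not a like comparison for it. The site was also described because its H3K27ac passed 2.5-fold in BALB and NOD. The libraries of both strains are in this fit, so nothing is read from its p-value. At the exon 8 site H3K27ac stayed low (18.1 tags at most, in BALB and NOD), and it rose there by 1.63 (SE 0.37, limma adjusted p = 0.003795), beside 5.33% of 29462 regions. The BALB and PWK exon 8 regions were likewise found open only after IL-4, and limma called the site in none of the strains tested alone.

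The upstream site had its own region only in PWK and in the C57 time course. In PWK its H3K27ac was 8.6 and 2.4 tags before and 288.2 and 88.8 after IL-4. With 1 tag added, that was a 29.3-fold difference, the 14th highest of the 60175 PWK regions. SPRET instead had regions just inside the gene: the one 1.9 kb from the start held 4.3 and 4.6 H3K27ac tags before and 227.4 and 26.9 after. This was a 23.6-fold difference of means and the 13th highest of 54755 SPRET regions, although its treated libraries differed more from each other than those of the SPRET promoter. The PWK upstream region and this SPRET region were found open only after IL-4, a choice that favours a higher treated value. Their ranks among all regions are therefore not a like comparison.

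Tested strain by strain with limma, H3K27ac rose at 8 of the 40 members outside C57. Of these 40 regions, 31 had been found open only after 24 h of IL-4, so they entered the tables through the group in which they were then higher, and their count supports nothing; among them were the BALB distal and exon 8 sites, the PWK upstream and exon 8 sites and the intron 1 site in all 4 tables. Of the 8 members found open both before and after IL-4, 4 rose: the BALB promoter, the PWK distal site, and the SPRET distal site and promoter. Among all regions open in both states the share that rose was 0.482% in BALB, 0.251% in PWK, 0.603% in SPRET and 0.0207% in NOD. In BALB 3 of 4 members rose (the distal site, the promoter and the intron 1 site), where 1.6% of all BALB regions did and 5.57% of those open only after IL-4. In PWK 2 of 4 rose, the distal site by 2.99 (adjusted p = 0.02977) and the upstream site by 4.83 (adjusted p = 0.00297), beside 0.487% of regions. In SPRET 3 of 28 rose, beside 0.994% of regions: the distal site by 2.18 (adjusted p = 0.008455), the promoter by 2.45 (adjusted p = 0.004936) and the region 1.9 kb inside by 3.88 (adjusted p = 0.00966). In NOD limma called 0 of 4 members and 0.0566% of regions. There the unadjusted p was under 0.05 at all 4 members, 1 was called by edgeR and 3 by DESeq2, and the fit with the replicate number as a block called 4. With the block the count over the 4 strains was 17 of 40. It was 5 without the second BALB basal library or without any one of the SPRET libraries. The BALB 24 h library with fewer H3K27ac tags at every member also had the smaller share of its tags in regions, 28.7% against 57.1% in its partner. The part of this share in the BALB result was not tested.

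Pol II was low across the locus in basal BMDMs and high after IL-4. At the promoter, C57 basal libraries held 40.6, 12.8, 2.1 and 4.0 normalised Pol II tags and treated libraries 241.4, 194.8 and 69.3. BALB held 32.6, 5.3 and 6.6 before and 292.0 and 223.8 after. NOD held 39.6 and 21.9 before and 387.8 and 276.7 after, and SPRET 35.8, 28.2 and 22.6 before and 251.0, 121.6 and 89.6 after. No basal library of any of these strains reached a treated library of its own strain. Over the 4 strains with a promoter region Pol II rose by 3.52 on the log2 scale (SE 0.37, n = 22 libraries, limma adjusted p = 2.422e-07), beside 5.4% of 31617 regions. With the C57 libraries left out, since the gene was known from C57 cells, the promoter value was 3.38 (limma adjusted p = 2.59e-07).

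**Figure D2:**
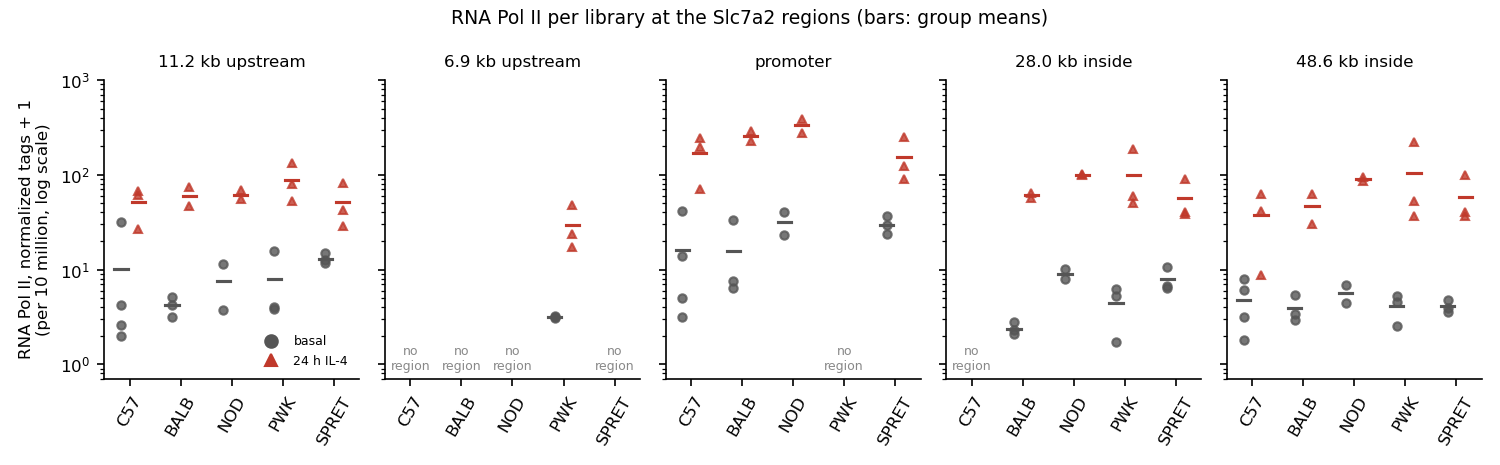
Pol II at the Slc7a2 sites in normalised tag counts plus 1 (per 10000000 tags, log axis), with 1 point per library and bars at the group means for basal and 24 h IL-4 BMDMs of each strain. Treated libraries lie above basal libraries of the same strain at the promoter and inside the gene, and C57 basal libraries spread the widest.

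Pol II was also higher at the distal site, where C57 basal libraries held 30.6, 3.2, 1.6 and 1.0 tags and treated ones 66.0, 59.6 and 25.6. The first basal library lay above the lowest treated one, so that the C57 groups overlapped at this site. In PWK, the strain with the highest treated values, the distal site held 14.8, 2.8 and 3.0 tags before and 131.6, 51.7 and 79.5 after. Over 5 strains distal Pol II rose by 3.17 (SE 0.32, n = 28 libraries, limma adjusted p = 2.695e-08), and by 3.16 without C57. Of the 29462 regions 7.5% rose, and the median over all of them was 0.02. The BALB distal region was found open only after IL-4, a choice that favours a higher treated value.

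Deep inside the gene the basal Pol II counts were near the floor. At the exon 8 site, the members nearest the far end of the window, BALB held 1.9, 2.4 and 4.4 tags before IL-4 and 61.8 and 29.4 after. NOD held 5.8 and 3.4 before and 93.3 and 85.0 after, and PWK 4.2, 3.5 and 1.5 before and 220.7, 35.6 and 52.2 after. In all 5 strains both groups were apart, with the low H3K27ac given above. Pol II there rose by 3.67 (SE 0.30, limma adjusted p = 4.175e-10), beside 7.5% of 29462 regions, and by 3.89 without C57. The BALB and PWK exon 8 regions were found open only after IL-4, a choice that favours a higher treated value. At the intron 1 site Pol II rose by 3.84 over BALB, NOD, PWK and SPRET (SE 0.27, limma adjusted p = 2.164e-10), beside 6.56% of 31010 regions. In each of these tables the region was found open only after IL-4, a choice that favours a higher treated value. The share over all regions is therefore not a like comparison for it. No strain by IL-4 interaction was called for Pol II at any of these 4 sites. The F test called 0 regions in each of these fits, so this does not show that the strains responded alike.

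Strain by strain, Pol II was higher in the mean of the treated libraries at all 43 members of the strain tables, and limma called 36 of them. All 4 members rose in BALB, where 0.663% of regions did, and all 4 in PWK, beside 1.44% of regions. In SPRET 27 of 28 rose, beside 0.782% of regions; the exception, 22.1 kb inside, held 5.8, 4.6 and 5.1 tags before and 27.04, 18.4 and 9.2 after (adjusted p = 0.1359). In C57 limma called 1 of 3 members, the promoter, beside 0.223% of regions, and the blocked fit called 3; this is the contrast in which the gene was selected, so nothing is read from these counts. In NOD limma called 0 of 4 members and 0.0% of regions, although the unadjusted p was under 0.05 at all 4; 3 were called by edgeR, 4 by DESeq2 and 4 in the blocked fit. In BALB the blocked fit called none of the 4. The total fell to 18 without the first SPRET 24 h library. As for H3K27ac, 31 of the 43 members had been found open only after IL-4, and 29 of these were called, which supports nothing beyond that choice. Of the 10 open in both states 5 were called, namely the BALB promoter, the PWK distal site, and the SPRET distal, promoter and exon 8 sites, where 0.398% of such regions rose in BALB, 1.19% in PWK and 0.429% in SPRET.

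The SPRET table, with 28 members, followed the gene body in the most detail. More than 5 kb inside the gene, 23 SPRET regions had mean basal Pol II of 2.2 to 6.89 tags (median 4.26) and mean treated Pol II of 18.22 to 144.78 tags (median 55.39). H3K27ac in the same 23 regions had medians of 2.04 tags before and 3.18 after, and H3K4me3 of 0.36 and 1.34. Between 1 kb and 5 kb inside lay 3 regions whose median H3K27ac went from 2.7 to 29.24 tags and whose median H3K4me3 went from 0.85 to 44.92. Treated Pol II was above basal in every SPRET region of the gene, while H3K27ac and H3K4me3 were highest near the start. Of the 28 SPRET members, 24 had been found open only after IL-4. The stretch covered was thus set by the treated state, a choice that favours higher treated values. Within intron 1 the SPRET region 31.4 kb inside had 6.8 and 7.2 H3K27ac tags before and 26.4 and 30.1 after, the most beyond 5 kb. The window cuts this stretch without a step: the last SPRET region inside, at 48578 bp, had mean Pol II of 3.09 before and 57.93 after, and the first outside, at 50544 bp, had 3.497 before and 56.49 after.

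**Figure D3:**
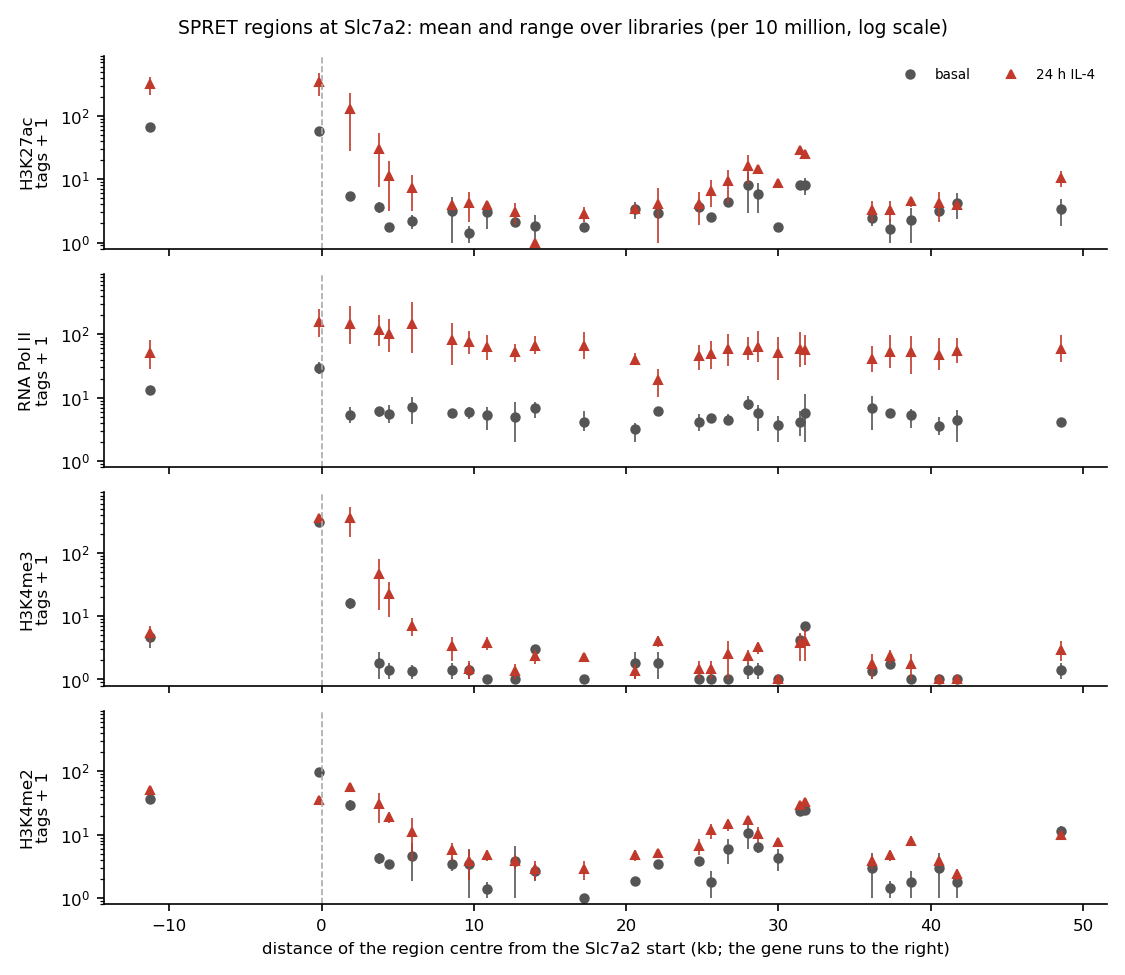
Normalised tag counts plus 1 (per 10000000 tags, log axis) of SPRET BMDMs at the 28 member regions against distance from the Slc7a2 start in kb, for each mark; points are means and lines the range over libraries, basal and 24 h IL-4. Mean treated Pol II stays between 18.22 and 144.78 tags in the 23 regions beyond 5 kb, where treated H3K27ac has a median of 3.18 tags and treated H3K4me3 one of 1.34.

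H3K4me3, the promoter mark, was already present at the Slc7a2 promoter before IL-4. It held 138.3 and 140.9 tags in basal C57 libraries and 368.5 and 428.4 after IL-4. BALB held 322.7 and 208.0 before and 506.8 and 540.8 after. NOD held 280.1 and 281.5 before and 461.0 and 319.9 after, whereas SPRET held 284.5 and 322.2 before and 404.4 and 310.2 after, so that the SPRET groups overlapped. Over the 4 strains promoter H3K4me3 rose by 0.80 on the log2 scale (SE 0.11, n = 16 libraries, limma adjusted p = 1.553e-05), beside 2.47% of 31617 regions; without C57 it was 0.56 (limma adjusted p = 0.00702). limma's F for a strain by IL-4 interaction was 7.18 there (unadjusted p = 8.766e-04), with an adjusted p of 1. That F test called 1 of the 31617 regions. In SPRET the region 1.9 kb inside held 18.7 and 12.04 H3K4me3 tags before and 524.3 and 176.4 after, a difference of 4.25 on the log2 scale that did not pass limma (adjusted p = 0.751). At the distal site H3K4me3 differed by 0.87 (adjusted p = 0.06475) and at the exon 8 site by 0.44 (adjusted p = 0.344), beside 3.98% of regions called higher. At the intron 1 site the difference was 1.14 (adjusted p = 0.05404), beside 1.32%.

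H3K4me2 moved in opposite directions at the promoter and the distal site. At the promoter it went from 85.8 and 104.9 tags to 48.8 and 41.7 in C57, and from 106.8 and 171.6 to 68.4 and 45.7 in BALB. In NOD it went from 64.5 and 146.3 to 51.1 and 50.2, and in SPRET from 81.7 and 109.2 to 30.5 and 37.6. In all 4 strains every treated library was below every basal one, and promoter H3K4me2 fell by 1.17 on the log2 scale (SE 0.21, limma adjusted p = 9.957e-06; −1.21 without C57). But 70.4% of the 31617 regions fell in that fit, and the median over all of them was −0.60. Under median-ratio scaling, which sets the typical region to no change, the promoter fell by 0.65 (limma adjusted p = 0.00128), beside 1.86% of regions. At the distal site H3K4me2 rose by 0.92 (SE 0.20, limma adjusted p = 2.059e-04), beside 1.76% of 29462 regions; the value was 1.35 under median-ratio scaling and 0.79 (adjusted p = 0.0103) without C57. The PWK distal libraries held 55.8 and 35.4 H3K4me2 tags before and 88.8 and 58.0 after. The BALB distal region was found open only after IL-4, a choice that favours a higher treated value. The intron 1 site rose by 1.16 (SE 0.24, limma adjusted p = 7.338e-04), beside 1.38% of regions. Its region was found open only after IL-4, a choice that favours a higher treated value. The exon 8 site differed by 0.23 (limma adjusted p = 0.4287).

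Within single strains limma called H3K4me2 higher at 1 of 43 members, beside 0.14% of the regions of the 5 tables. This was the PWK upstream site, which held 11.7 and 0.8 tags before and 53.8 and 31.1 after IL-4 (log2 difference 3.13, adjusted p = 3.964e-06). That region was found open only after IL-4, so its call supports nothing beyond that choice of regions. For H3K4me3 limma called 0 of 43 members and 0.00982% of regions; the unadjusted p was under 0.05 at 10 members, and 4 were called by edgeR and 3 by DESeq2.

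In the C57 time course, H3K27ac was already above basal at 1 h at the distal, upstream and promoter sites. These H3K27ac values share their basal libraries with the C57 comparison that chose the gene and are a description. At the distal site the libraries held 16.3 and 8.6 tags basally, 254.3 and 37.2 at 1 h, 338.1 and 219.7 at 6 h and 199.5 and 158.8 at 24 h. The upstream site held 0.7 and 0.7 tags basally, 45.6 and 10.3 at 1 h, 55.5 and 49.9 at 6 h and 73.0 and 51.9 at 24 h. The promoter held 10.8 and 5.0 basally, 439.9 and 29.9 at 1 h, 477.5 and 410.8 at 6 h and 396.4 and 158.8 at 24 h. At all 3 sites every treated library was above every basal one from 1 h on, and the 1 h libraries lay the farthest apart. The 1 h library with the lower values had 20.5% of its tags in regions and the other 43.9%, while the basal libraries had 69.7% and 63.8%; their part in these values was not tested. The exon 8 site stayed between 2.0 and 5.8 tags at all treated times.

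**Figure D4:**
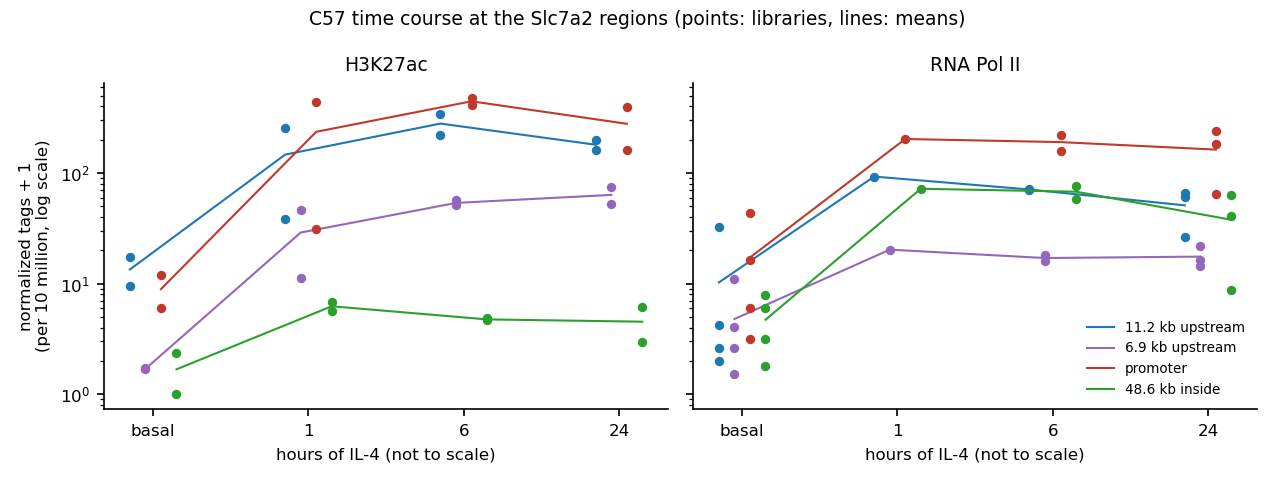
H3K27ac and Pol II in C57 BMDMs at the Slc7a2 sites of the time course, in normalised tag counts plus 1 (per 10000000 tags, log axis), with 1 point per library at 0, 1, 6 and 24 h of IL-4 and lines through the means. Values are above basal at 1 h at the distal, upstream and promoter sites, and the single 1 h Pol II library lies above the basal libraries at every site.

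Pol II at the promoter in the time course was 42.4, 15.2, 2.1 and 5.1 tags in the basal libraries, 202.1 in the single 1 h library, 158.8 and 219.9 at 6 h and 237.4, 183.9 and 64.1 at 24 h. At the exon 8 site, reached late in the gene, it was 6.9, 0.8, 2.1 and 5.1 tags basally, 71.1 at 1 h, 57.5 and 76.0 at 6 h and 62.7, 40.0 and 7.7 at 24 h. In the regions 26.7 kb, 34.6 kb and 40.5 kb inside the gene, the 1 h library held 83.8, 74.1 and 70.6 tags. At all 5 of these places it lay within or above the range of the 6 h and 24 h libraries. At 6 h limma called 6 of 7 members higher, beside 0.428% of regions, the promoter by 4.13 (SE 0.75, adjusted p = 0.01913) and the exon 8 site by 4.05 (SE 0.69, adjusted p = 0.01372). The upstream site did not pass at 6 h (2.22, adjusted p = 0.1387). At 24 h limma called 5 of 7, beside 0.503% of regions, a count from which nothing is read for the same reason as in the C57 strain table. At 1 h limma called 0 of 7 members and 0.0462% of regions, with all 7 at an unadjusted p under 0.05 and differences of 2.47 to 5.08; edgeR called 5 and the blocked fit 5. The 1 h group is 1 library, assumed in these fits to vary like the other groups, and 4 of the 7 members (the upstream site and those 26.7, 34.6 and 40.5 kb inside) had been found open only at 1 h. These counts rested on single libraries: none was called at 6 h without either 6 h library, none at 24 h without the first or the second 24 h library or the fourth basal one, and 7 at 1 h without the first basal library. With the block, 7 were called at 24 h.

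Factor peaks clustered at the same sites. Among the 54 peak lists, made from replicate libraries by reproducibility ranking, 38 had a peak at the distal site, 32 at the exon 8 site, 25 at the proximal site 0.6 kb upstream, 18 at the intron 1 site, 17 at the start itself and 7 at the upstream site. Of the 15 sites, 5 held a peak of all 5 strains, and 7 held a peak of a single list. A list with no peak there says that none passed the caller, not that the factor was absent. The lists also differed in length between strains and states, and a longer list can hold a peak at more sites. Kept to the 10000 highest peaks of each list, the distal site remained in 35 lists, whereas the exon 8 site remained in 9 and the intron 1 site in 5.

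STAT6, the factor that IL-4 activates, had a peak at the distal site in 4 of 5 strains without IL-4 (not in BALB) and in 5 of 5 at 24 h. In C57 that peak stood 18166th of 30589 by its count basally, 111th of 24376 at 1 h, 121st of 23884 at 6 h and 239th of 39537 at 24 h. At 24 h it stood 27th of 38679 in PWK, 101st of 20619 in NOD, 174th of 16432 in BALB and 181st of 35742 in SPRET. The distal STAT6 peak thus stood far up its list in every strain after IL-4. At the proximal site STAT6 had a peak in 0 of 5 strains basally and in 5 of 5 at 24 h, and in C57 also at 1 h and 6 h. At the upstream site it had one in 4 of 5 strains at 24 h, standing 1545th of 38679 in PWK, 2654th of 35742 in SPRET, 14580th of 39537 in C57 and 19622nd of 20619 in NOD. PWK, the strain with the highest standing there, was also the strain whose table had a region at the site.

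**Figure D5:**
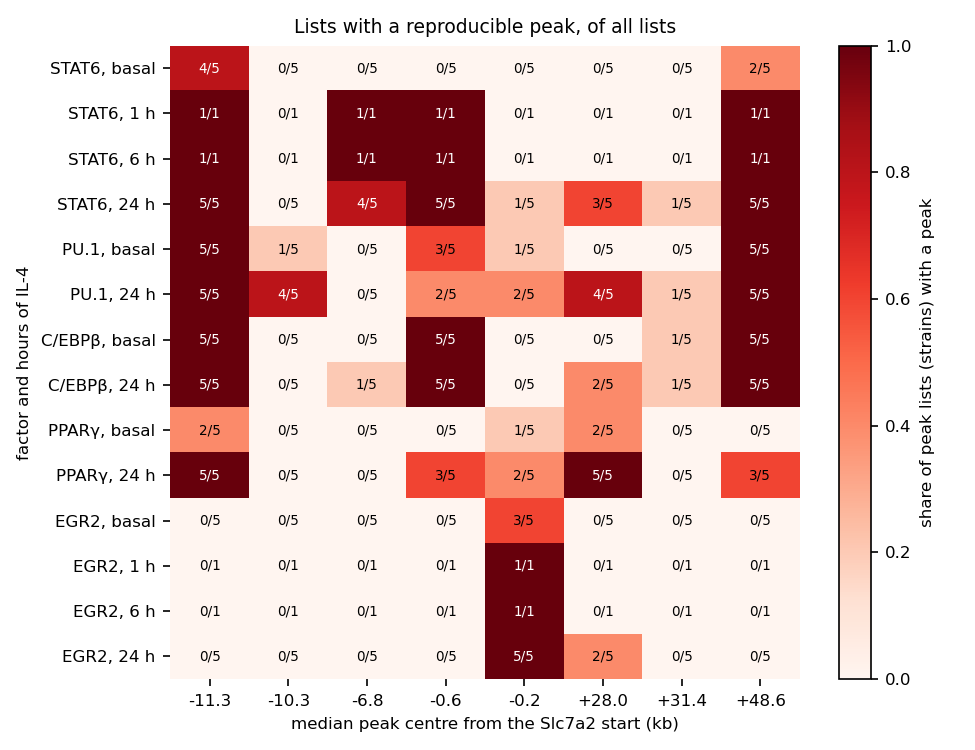
Share of peak lists with a reproducible peak at the Slc7a2 sites, by factor and hours of IL-4 (vertical) and median peak centre in kb from the start (horizontal); each cell gives the lists with a peak of all lists, 1 list per strain. PU.1 and C/EBPβ have 5 of 5 at the distal and exon 8 sites with and without IL-4, and STAT6 at the proximal site has 0 of 5 basally and 5 of 5 at 24 h.

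PU.1 and C/EBPβ, the factors that shape the macrophage enhancer set, had a peak at the distal and exon 8 sites in 5 of 5 strains in both states, and C/EBPβ also at the proximal site. The PU.1 peak at the distal site in C57 stood 12095th of its list basally and 1078th at 24 h. At the intron 1 site PU.1 had a peak in 0 of 5 strains basally and in 4 of 5 at 24 h. PPARγ, a lipid-responsive nuclear receptor, had a distal peak in 2 of 5 strains basally (NOD and SPRET) and in 5 of 5 at 24 h. The PPARγ intron 1 peak was found in 2 of 5 strains basally and in 5 of 5 at 24 h. The basal PPARγ lists were shorter than those at 24 h in C57 (7627 and 39088 peaks), BALB (6524 and 23578), NOD (12529 and 40426) and PWK (18402 and 46415). In SPRET the basal list was the longer (19684 and 18487). The part of list length in these counts was not tested. At 24 h the intron 1 peak stood 348th of 40426 in NOD and 764th of 23578 in BALB. It stood 7848th of 18487 in SPRET, 15038th of 46415 in PWK and 36110th of 39088 in C57. The order of H3K27ac at this site after IL-4 was likewise NOD and BALB above PWK and SPRET, and C57 had no region there; this is a description over 5 strains with no test.

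EGR2, a zinc finger factor induced by IL-4 in macrophages, had a peak at the start in 3 of 5 strains basally (BALB, NOD and SPRET) and in 5 of 5 at 24 h, and in C57 also at 1 h and 6 h. The basal lists without this peak, those of C57 (8437 peaks) and PWK (6201), were the shortest EGR2 lists. At 24 h these strains had lists of 29407 and 14919 peaks, and the part of list length in the count was not tested. The C57 peak at 24 h stood 5473rd of 29407. Of its 248 bases, searched with the same motifs, 3 places matched the EGR motif (2 of them overlapping), 1 the PU.1 motif and 1 the hexamer. In the C57 EGR2 tag table the region at this peak (chr8:40862015-40862417) held 20.6 and 86.0 normalised EGR2 tags basally, 38.8 and 89.7 at 1 h, 43.6 and 112.0 at 6 h and 115.8 and 142.1 at 24 h. The 24 h libraries were above both basal ones and the earlier times overlapped with them. The log2 differences from basal were 0.47, 0.71 and 1.58 (SE 0.75 each), and limma called none of them at any time (adjusted p = 0.838 at 24 h, with an unadjusted p under 0.05), beside 0.0% of all 92025 tests; edgeR also called none. The basal library with 20.6 tags had 10.77% of its tags in regions and its partner 14.15%, against up to 22.03% at 24 h, and their part in the difference was not tested.

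By H3K27ac over the 10 group means of 5 strains in 2 states, the regions most like the distal Slc7a2 site among the 29462 matched ones were nearest to Bhlhe40, a basic helix-loop-helix repressor (r = 0.993), Hbegf, a ligand of the epidermal growth factor receptor (r = 0.988), Epha1, an ephrin receptor (r = 0.986), Ankrd55 (r = 0.986) and Uvrag, an autophagy and endosome protein (r = 0.985). These correlations are descriptions over means that share libraries and a large common IL-4 step, and the Bhlhe40 region lay −91042 bp from that gene's start.

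Of 30 listed genes of cationic amino acid transport, arginine use and polyamine metabolism, 22 had a promoter region in all 5 strains. The other 8, among them Arg1, which encodes arginase, and Slc7a2 itself, did not (Slc7a3, Slc7a7, Agmat, Slc25a15, Oaz2 and Pycr3), so the counts do not speak for them. For H3K27ac limma called 0 higher, where 5.33% of all regions rose, and 1 lower, where 16.3% fell. The 1 lower was Smox, spermine oxidase, which fell by 0.62 (limma adjusted p = 0.0472). The median difference of the 22 was −0.05, against −0.26 over all regions. For Pol II 1 rose (Paox, another polyamine oxidase, by 0.67, limma adjusted p = 0.0247) and none fell, with a median of 0.10 against 0.02. Among all regions 7.5% rose and 7.2% fell, so nothing is read from this count. H3K4me2 fell at 21 of the 22, where 72.2% of all regions fell (median −0.59 against −0.53), and H3K4me3 fell at 2 (Srm and Smox), where 10.0% did (median −0.18 against −0.10). Slc7a1, the related transporter CAT1, had mean promoter H3K27ac of 88.7 tags before and 89.6 after IL-4, and Odc1, the ornithine decarboxylase that starts polyamine synthesis, had 83.6 and 87.8.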

How the data were processed

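BMDM ChIP-seq libraries of 5 mouse strains, a C57 time course and EGR2 genotypes were analysed, 267 samples in all with their factor libraries. Reads were aligned by the authors with Bowtie2, each strain to its own MMARGE genome, and moved to mm10 coordinates, after which HOMER counted tags. Regions were those the authors found open by ATAC-seq in any state of the strain. The deposited coverage signal is the number of tags in 1 kb around each centre of open chromatin (in the peak itself for EGR2), scaled to 10000000 tags per library. The authors called factor peaks on replicates with the irreproducible discovery rate, and each deposited peak carries their score and a count; peaks were ranked here within each list by the count, whose definition the headers do not give. Of the 7268918 scaled values, 100.0% came out as whole reads within rounding, which gave the depth of each library. The 4 columns of tag values that matched no sample were not used.

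Regions of different strains were matched when their centres lay within 500 bp of each other; each strain table was scaled on its own, so every contrast was taken within a table. Two-sided tests used limma 3.58.1 (R 4.3.3) on log2(tags + 1), fitted on all regions with Benjamini-Hochberg adjustment and a threshold of 0.05. Over strains the fit had strain and IL-4 terms and their interaction, with C57 left out for H3K27ac; within a strain or over time it held that table's libraries of 1 target. Because 1 tag is added, folds of regions with few tags come out too small. p-values measure the spread between these replicate libraries. edgeR 4.0.16 and DESeq2 1.42.0 on the recovered reads were alternatives, as were a pseudocount of 5, a filter on low values, median-ratio scaling, matching within 200 bp, a replicate block, leaving out each library, and the 10000 highest peaks. Regions matched without PWK or without C57, and leaving C57 out of the other marks, were added after seeing the data. On simulated data modelled on the H3K27ac fit over strains (29462 regions), 90 of 100 seeded 2-fold and 100 of 100 seeded 4-fold differences were found by limma, beside 9 false calls. The simulated libraries had a fixed spread and no deviations shared across a library, unlike the real ones. These counts therefore do not say how many such differences the real fit would find.

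Same-numbered libraries of a strain deviated together for H3K27ac (r = 0.261 to 0.492 in 10 of 10 pairs) and Pol II (0.118 to 0.469 in 13 of 13). With 2 libraries in each group, both pairs of a strain must give the same r, so the H3K27ac pairs hold 1 value per strain. Blocked values stand beside results they change. The pairing comes from this check, as the labels give only numbers. The gene, its sites, the gene lists and the tests were chosen with earlier results of these data known. Described in full were the promoter, the distal site with the highest C57 24 h H3K27ac, further sites past 2.5-fold H3K27ac in a strain, and the EGR2 region; likeness was ranked by Pearson r over 10 group means for regions outside the window. Figures used matplotlib 3.10.9, and tables pandas 2.3.3 in Python 3.11.15.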

Additional observations from a re-analysis of the deposited data

Results flagged for a closer look

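Only the C57 basal Pol II group had 4 libraries, enough to look for a library far from the others; of its values at 10 regions, 2 held one, at the same site. Basal replicate 1 held 30.57 normalised Pol II tags at the distal site in the strain table, against 1.01 to 3.21 in the other 3 libraries, and 31.2 tags at the same site in the time-course table, which holds the same libraries. Chance alone marks about 1 group in 20. The same library had the highest basal Pol II at the C57 promoter, 40.56 tags.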

How the results depend on the processing

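Over strains, H3K27ac and Pol II at the distal, promoter, intron 1 and exon 8 sites and H3K4me2 at the distal, promoter and intron 1 sites kept their direction and stayed past the threshold under every alternative that gave a value, and the distal H3K27ac difference stayed between 2.627 and 3.025 when any 1 library was left out. The intron 1 region was found open only after IL-4, as were the BALB distal region and the BALB and PWK exon 8 regions, and no alternative removes that choice. Sites with few tags gave no value under the filter on low values, and no alternative was run for the Egr2 genotypes, which had no site. H3K4me3 at the distal site passed the threshold with the replicate block (0.8695, adjusted p = 0.0122) and ran from 0.5672 to 1.172 with 1 library left out, passing without the first NOD 24 h, NOD basal or PWK basal library. At the intron 1 site it passed with a pseudocount of 5 (0.5424) and with the block (1.137), and ran from 0.9696 to 1.304, passing without the first BALB 24 h, the second PWK 24 h or the first PWK basal library.

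Within single strains the count of H3K27ac members called was 8, 17 with the replicate block, and 5 to 11 with 1 library left out. The Pol II count of 36 ran from 18 to 38. The H3K4me2 count of 1 became 2 under median-ratio scaling and by DESeq2, 3 by edgeR and 8 with the block, and ran from 0 to 8. The H3K4me3 count of 0 became 1 with the filter, 3 with the block and by DESeq2, and 4 by edgeR. For these 2 methylation marks the replicate numbers did not pair the libraries throughout, so the block rests only on a shared number there. For each mark 8 of 10 pairs had r over 0.1, where the 2 pairs of a strain share 1 value. Pol II calls at 1 h went from 0 to 4 under median-ratio scaling and to 5 with the block or edgeR; with 1 library left out they ran from 0 to 7, as did those at 6 h and at 24 h. EGR2 at its peak differed from basal by −0.5326 to 1.476 at 1 h and by −0.2916 to 1.717 at 6 h; the sign turned at both times without the first basal library, and at 1 h also without the second 1 h library (−0.1217). Of the 10000 highest peaks per list, the proximal site kept 16 lists of 25, the start 8 of 17, the intron 1 site 5 of 18 and the exon 8 site 9 of 32. The causes of these changes were not tested. Over all 29462 regions the split of H3K27ac calls was 1569 higher and 4792 lower, and 2470 and 3380 under median-ratio scaling; for H3K4me2 it was 519 and 21262, and 1248 and 733; for H3K4me3 it was 1174 and 2952, and 1083 and 1216. With 2 libraries in most groups, only large differences could pass within a strain.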
